A study of Saccharomyces cerevisiae with 17 samples.

Results

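Transcript levels late in a brewery fermentation were compared with those at the start of propagation in the lager yeast strain CB11. The comparison takes the 3 arrays of fermentation 60 h minus the 3 arrays of propagation 0 h, 6 of the 17 arrays of the series, and covers all 5449 genes of Saccharomyces cerevisiae that the arrays could be matched to. The study concerns the oxidative stress response of a brewing strain. Its other 11 arrays hold propagation at 8 and 30 h and fermentation at 8 and 30 h, and the fermentation arrays among them are used below only to place the 60 h values.

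The propagation yeast was drawn from a 140 hL vessel directly after inoculation, after aerobic growth in an 8 hL vessel. The wort of the 140 hL vessel, which this yeast had only just entered, was kept at 20 °C and had a specific gravity of 17 °Plato. It carried 0.5 mg/L of zinc ions and was held at 7 to 8 mg/L of dissolved oxygen. The fermentation yeast came from a 3275 hL cylindroconical vessel, 60 h into a fermentation run with a batch that had already served in 4 earlier ones. Its wort held 25 mg/L of oxygen before the yeast was added and 0.2 mg/L of zinc sulphate. The labels give no temperature or specific gravity for the fermentation, so whether these differed from propagation is not known. Both worts were made of 85% malt and 15% sugar adjunct. Strain and wort recipe are thus shared, while stage, time, vessel, oxygen supply, zinc and the history of the yeast batch differ together and cannot be told apart. Arrays A, B and C of a group are samples from 1 vessel, so the p-values measure the spread between samples of that vessel, which may be technical. In samples of a whole culture, fewer cells with a transcript and less transcript per cell cannot be told apart.

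Brewing yeast is propagated with oxygen so that it grows and builds sterols and unsaturated fatty acids, for which it needs molecular oxygen, and is then put into wort where oxygen is soon used up. In fermentation the cells take up glucose first and maltose later, and slow their growth as sugars and other nutrients run out and ethanol builds up. Yeast defends itself against reactive oxygen with superoxide dismutases, catalases, peroxiredoxins and the thioredoxin and glutathione systems, largely under the transcription factors Yap1, Skn7, Msn2 and Msn4. Msn2 and Msn4 also drive the general stress response, which in yeast runs opposite to the genes that build ribosomes.

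Values are log2 signals of the RMA method, on which a difference of 1 is a doubling, and values for 3 arrays are given in the order A, B and C. Probe sets for genes of another species served as background, and 95% of their values on these 6 arrays lay below 4.75. The median signal of the yeast genes was 8.06 to 8.13 on the fermentation 60 h arrays and 7.75 to 8.05 on those of propagation 0 h.

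The arrays of a group were not alike. The probe sets at the 3-prime and 5-prime ends of 8 control mRNAs differed by 3.44, 1.65 and 1.04 at fermentation 60 h and by 4.39, 1.15 and 2.49 at propagation 0 h, so array A had the largest gap in both groups. Control probe sets for ribosomal RNA were brightest on fermentation 60 h C (11.06) and propagation 0 h B (11.61) and lay between 5.02 and 7.29 on the other 4 arrays. The hybridization controls were at 4.63 on propagation 0 h B and between 9.30 and 10.38 elsewhere. Propagation 0 h A stood apart from its own group: the standard deviation of the difference across genes was 1.17 from B and 1.08 from C, against 0.37 between B and C. Its 5-prime control signals for ACT1 and TDH1 were 5.65 and 5.25, against 10.92 and 11.06 on B and 8.60 and 8.22 on C. Whether the values of propagation 0 h A that stand apart below go back to this end difference was not tested. With the end difference of the control mRNAs as a covariate 2392 genes passed, and with arrays weighted by their spread 3493 did, against 1298 as reported below.

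**Figure D1:**
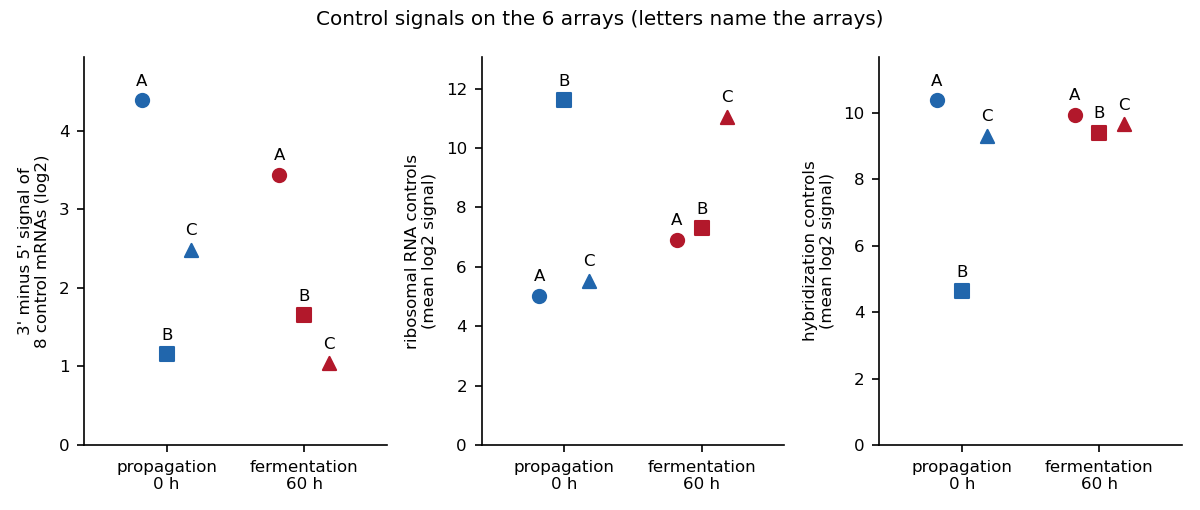
Control signals on each of the 6 arrays, by group, on the log2 scale: the 3-prime minus 5-prime difference of 8 control mRNAs (left), the mean of the ribosomal RNA controls (middle) and the mean of the hybridization controls (right). Each point is 1 array and its letter. Array A has the largest end difference in both groups (4.39 and 3.44), and propagation 0 h B has the lowest hybridization control signal (4.63).

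In all, 1298 of the 5449 genes (23.8%) changed at an adjusted p under 0.05 in limma, a linear model with moderated variances, after Benjamini-Hochberg adjustment over the whole set. Of these, 816 genes (15.0% of those tested) were higher at fermentation 60 h and 482 (8.85%) were lower, and 1160 (21.3%) also differed at least 2-fold. The median difference of all genes was 0.18, so list medians below are given relative to it. After recentring each array on its median gene, 636 genes were higher and 673 lower, and after quantile normalization 644 and 675, so the surplus of higher genes depended on the scaling. The 3 and 3 arrays did not overlap for 2419 genes (44.4%), 1552 higher (28.5%) and 867 lower (15.9%). Leaving out single arrays moved the count from 309 without fermentation 60 h B, 455 without C and 793 without A, to 643 without propagation 0 h B, 701 without C and 2715 without A. Of the higher genes 182 and of the lower genes 123 were called without each array in turn. None of the 1298 turned its direction in any of the 19 other settings tried, but these refit the same arrays, so directions had little room to turn. Without the arrays of brightest ribosomal RNA controls, fermentation 60 h C and propagation 0 h B, 29 genes passed in limma (1120 at an unadjusted p under 0.05). Without propagation 0 h A 1520 genes were higher and 1195 lower, and without both A arrays 1807 and 1465. Counts of list members under a setting, below, are to be set against the counts of all genes under that same setting.

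**Figure D2:**
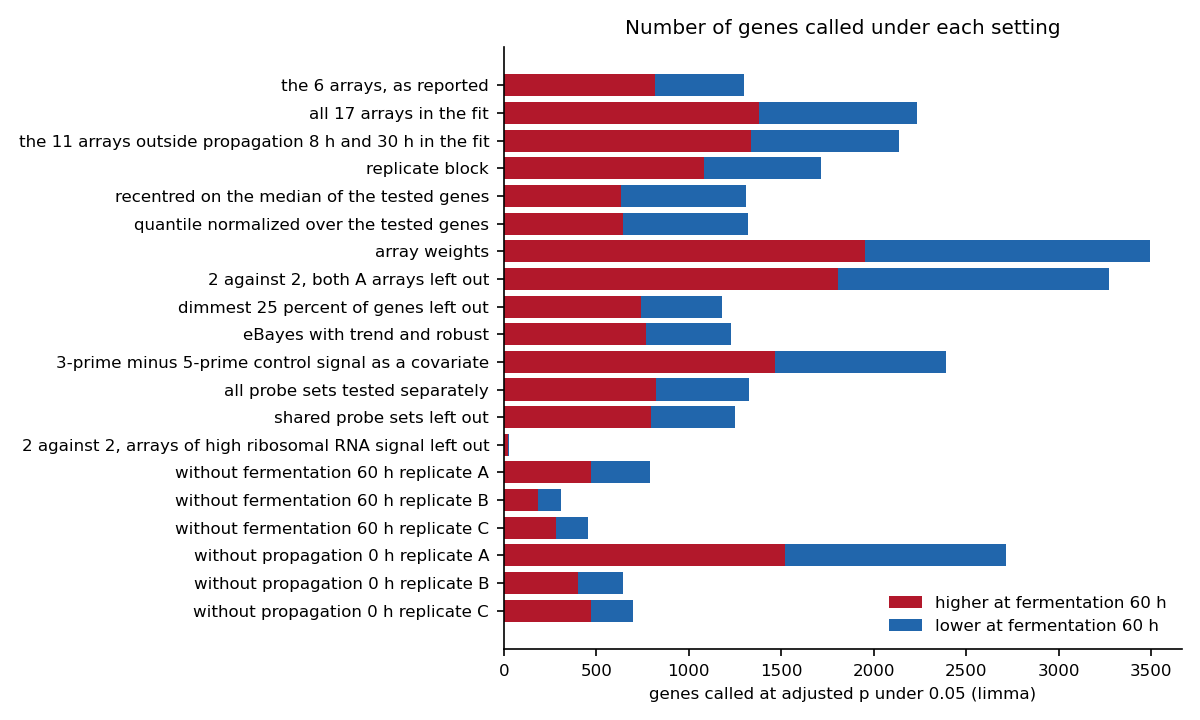
Number of genes called at an adjusted p under 0.05 under each setting, higher at fermentation 60 h in red and lower in blue, as stacked bars from 0. The count is 1298 as reported, 3272 without both A arrays and 29 without the arrays of brightest ribosomal RNA controls.

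The 10 largest rises among named genes ranged from 3.91 to 6.75. SIP18 (YMR175W), a hydrophilin that protects cells against drying, was at 13.28, 13.12 and 13.07 at fermentation 60 h and at 8.00, 5.45 and 5.78 at propagation 0 h. Every 60 h array was thus more than 5 log2 units above every 0 h array, and the mean rose by 6.75 (SE 0.63, adjusted p = 0.0016 in limma). GRE1, another hydrophilin, was at 10.61, 11.03 and 10.99 against 6.27, 5.39 and 5.41, a rise of 5.19 (SE 0.32, adjusted p = 0.000746). In both genes the 60 h arrays lay close together, and propagation 0 h A was the highest of its group.

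Behind them came VEL1 at 4.52 (SE 0.40), whose propagation 0 h mean of 4.39 was not above background, so that its size and rank are uncertain. Next were HEF3 at 4.47 (SE 0.44), PAI3 at 4.39 (SE 0.60), SHH3 at 4.25 (SE 0.26), CTT1 at 4.20 (SE 0.46), FAT3 at 4.18 (SE 0.35), and THI13 and NCA3 at 3.91 (SE 0.30 and 1.00). HEF3 encodes a second form of translation elongation factor 3, PAI3 the inhibitor of the vacuolar protease Pep4, and SHH3 a relative of a succinate dehydrogenase subunit. The probe set of THI13, a thiamine synthesis gene, is shared with near-identical copies, so the signal may come from any of them. NCA3, of the SUN family of cell wall proteins, was at 10.64, 12.06 and 12.37 against 5.32, 8.95 and 9.06. Its groups did not overlap, but its call was lost without any one of the fermentation arrays (adjusted p up to 0.11, without B), whereas the other 9 of the 10 largest rises were called without each array in turn.

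The 10 largest falls took in 4 ribosomal protein genes and 2 glucose transporters. RPL22B, a protein of the large ribosomal subunit, was at 6.13, 5.14 and 5.02 at fermentation 60 h against 10.23, 9.86 and 9.80, and fell by 4.54 (SE 0.35, adjusted p = 0.0014 in limma). HXT1, the low-affinity glucose transporter induced by high glucose, was at 6.20, 6.08 and 6.95 against 9.70, 11.15 and 11.24, and fell by 4.29 (SE 0.47, adjusted p = 0.00239). For both, the highest 60 h array lay below the lowest 0 h array by over 2 log2 units. Next were the fatty acid elongase ELO3 at -3.79 (SE 0.67), the glucose transporter HXT4 at -3.65 (SE 0.55), RPS26B at -3.53 (SE 0.33), RPL4B and the RNA helicase DBP2, both at -3.50 (SE 0.61 and 0.69), the glucose repressor MIG2 at -3.44 (SE 0.64), RPL31B at -3.39 (SE 0.30) and CGR1, of ribosome assembly, at -3.30 (SE 0.49). DBP2 was lost without fermentation 60 h A or B (adjusted p up to 0.0565) and MIG2 without B (0.0546). The other 8 were called without each array in turn.

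Genes that remove superoxide and peroxide were higher at fermentation 60 h. Of 15 tested, 11 rose (73.3%, against 15.0% of all genes) and 0 fell, and the median was 1.54 above that of all genes. The 4 others were CCS1, the copper chaperone of Sod1, at 0.56, the thiol peroxidase DOT5 at 0.49, the flavohemoglobin YHB1 at -0.29 and GPX2 at -0.44. The cytosolic catalase CTT1 was at 12.57, 12.98 and 13.03 against 7.62, 8.92 and 9.43, over 3 log2 units apart on every pair of arrays, and rose 18.4-fold (adjusted p = 0.00239 in limma). The peroxisomal catalase CTA1 was at 10.56, 11.14 and 11.02 against 7.06, 7.91 and 8.22, a rise of 3.18 (SE 0.36, adjusted p = 0.00275). Both catalases were called without each array in turn.

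The superoxide dismutases rose less. SOD1, the cytosolic copper-zinc enzyme, was at 12.23, 12.57 and 12.55 against 9.70, 11.26 and 11.25, a rise of 1.72 (SE 0.45, adjusted p = 0.0308 in limma), and propagation 0 h A was the low array. SOD2, the manganese enzyme of mitochondria, was at 10.25, 11.70 and 12.18 against 7.95, 9.90 and 9.55, a rise of 2.24 (SE 0.65, adjusted p = 0.0434). Its groups did not overlap, and array A was the low one in both. SOD1 was lost without any one of the fermentation arrays (adjusted p up to 0.122, without B), and SOD2 without fermentation 60 h B or C or propagation 0 h B or C (up to 0.146). Without propagation 0 h A the rises were 1.20 and 1.65, and both passed.

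Among the peroxiredoxins, which reduce peroxides with electrons from thioredoxin, TSA1 was at 13.57, 13.58 and 13.58 against 11.86, 12.61 and 12.28, a rise of 1.32 (SE 0.27, adjusted p = 0.0144 in limma). Its 60 h signal was near the top of the scale, where the highest value of any probe set was 14.07. TSA2, its less abundant cytosolic relative, rose by 2.42 (SE 0.59, adjusted p = 0.026) and AHP1 by 1.39 (SE 0.25, adjusted p = 0.00912). All 3 had arrays that did not overlap, and all 3 were lost without fermentation 60 h B (adjusted p 0.0827, 0.11 and 0.0711). TSA1 and TSA2 were lost without fermentation 60 h C as well. Over the list, 5 members passed without fermentation 60 h B and 6 without C, against 9 to 11 without any other single array.

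Of 19 genes of the thioredoxin, glutaredoxin and glutathione systems, 12 rose (63.2%, against 15.0% of all genes) and 0 fell. Their median was 1.13 above that of all genes. The largest rises were those of glutathione transferases and methionine sulfoxide reductases, which repair oxidized methionine. GTT1, a glutathione transferase, was at 12.28, 12.52 and 12.37 against 8.59, 9.48 and 9.74, a rise of 3.12 (SE 0.34, adjusted p = 0.00239 in limma). ECM4, an omega-class transferase, rose by 2.25 (SE 0.28), the mitochondrial reductase MXR2 by 2.00 (SE 0.26) and the cytosolic MXR1 by 1.84 (SE 0.30). These 4 were the members called without each array in turn.

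The thioredoxin TRX2 was at 12.94, 12.63 and 12.55 against 11.73, 11.65 and 11.49, a rise of 1.08 (SE 0.24, adjusted p = 0.0198 in limma). Its arrays lay in narrow, separate ranges. The glutaredoxin GRX1 rose by 1.12 (SE 0.27, adjusted p = 0.0242), a call that quantile normalization ended (adjusted p = 0.109). TRX2 and GRX1 were both lost without any single array other than propagation 0 h A, with adjusted p up to 0.103 and 0.109. Under quantile normalization 8 members of the list rose, and without fermentation 60 h B 4 did.

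Of the enzymes that make or recycle glutathione and thioredoxin, the mitochondrial thioredoxin reductase TRR2 rose by 1.60, while GSH1, GSH2 (0.75), GLR1 and TRR1 did not pass. GSH1, the first enzyme of glutathione synthesis, was at 9.55, 9.63 and 9.47 against 6.17, 8.48 and 8.72, a difference of 1.76 (SE 0.63, adjusted p = 0.0814 in limma). The groups did not overlap, and propagation 0 h A was over 2 log2 units below B and C of its group. In the limma fit with the replicate block, which compares arrays of the same letter, the adjusted p was 0.0318. The labels name no such pairing, so values with the block, here and below, are only an alternative. An adjusted p with the block is printed only where a gene passed with it, 23 of the 78 named genes that had not passed. For the others the block gave no call. Over all genes 1083 were higher and 634 lower with the block. GLR1, the glutathione reductase, was at 10.14, 9.90 and 9.77 against 8.64, 9.89 and 10.19, a difference of 0.37 (adjusted p = 0.559). The thioredoxin reductase TRR1 was at 9.63, 10.31 and 10.18 against 10.14, 10.81 and 10.72, a difference of -0.51 (adjusted p = 0.263). The groups overlapped for both reductases.

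**Figure D3:**
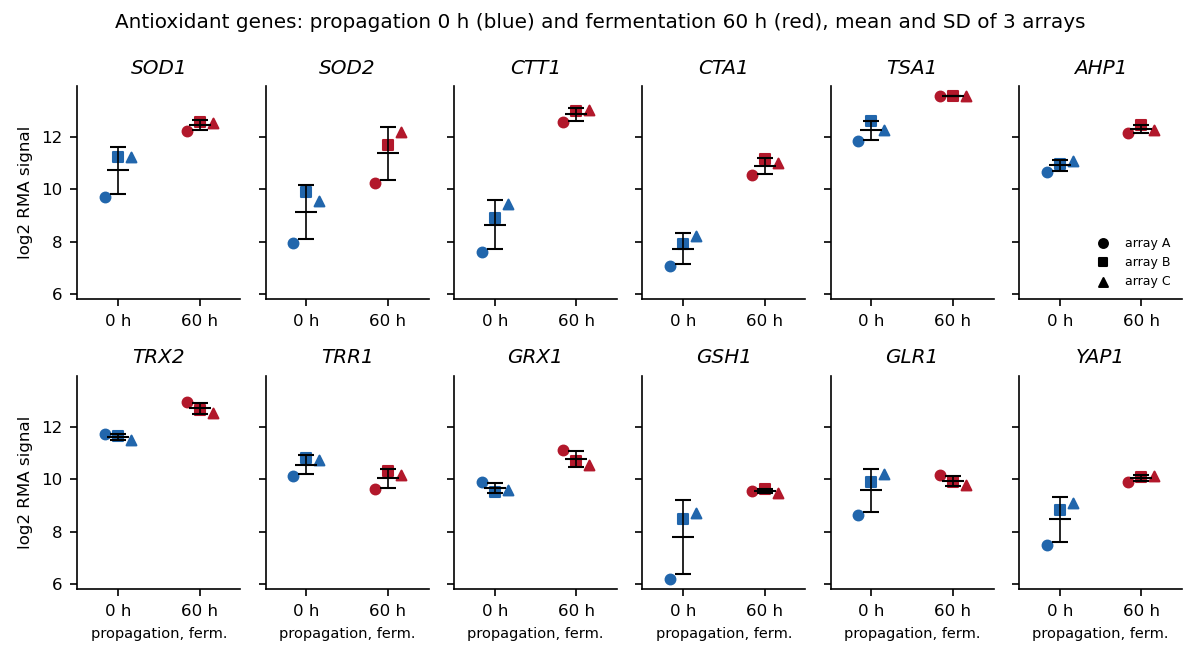
Log2 signal of 12 antioxidant genes on each array at propagation 0 h (blue) and fermentation 60 h (red), with the mean and SD of 3 arrays as bars and the array letter by symbol. CTT1 differs most (a rise of 4.20), GLR1 and TRR1 overlap between the groups, and propagation 0 h A is the lowest array for SOD1, SOD2, GSH1 and YAP1.

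Of 11 regulators of the oxidative and general stress response, 4 rose (36.4%, against 15.0% of all genes) and 0 fell. Their median was 0.44 above that of all genes. YAP1, the main regulator of the response to peroxides, was at 9.91, 10.09 and 10.12 against 7.48, 8.82 and 9.09, a rise of 1.57 (SE 0.43, adjusted p = 0.0361 in limma). The heat shock factor HSF1 rose by 1.41 (SE 0.29, adjusted p = 0.0147) and GIS1, a regulator of stationary phase genes, by 1.09 (SE 0.27, adjusted p = 0.0272). The fourth was YBP1, which aids the activation of Yap1, at 0.93. No regulator was called without fermentation 60 h B or without propagation 0 h B. SKN7 differed by -0.13 (adjusted p = 0.79), MSN2 by 0.46 (0.494) and MSN4 by 0.62 (0.376), and the arrays of all 3 overlapped.

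NADPH-dependent aldehyde and quinone reductases showed 1 rise among 12 (8.33%, against 15.0% of all genes), that of OYE3, an old yellow enzyme, which was at 7.56, 7.44 and 7.46 against 6.17, 6.09 and 6.41 (1.26, SE 0.23, adjusted p = 0.01 in limma). It was lost without fermentation 60 h B or C (adjusted p up to 0.0709). With the replicate block 5 of the 12 rose and 1 fell, OYE2, which was at 9.19, 9.12 and 9.02 against 9.18, 11.14 and 11.30. OYE2 differed by -1.43 (adjusted p = 0.0961, and 0.0472 with the block), and propagation 0 h A lay with the 60 h arrays. GRE2, the methylglyoxal reductase, differed by 0.40 (adjusted p = 0.321).

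General stress genes were higher at fermentation 60 h. Of 30 targets of Msn2 and Msn4, 26 rose (86.7%, against 15.0% of all genes) and 0 fell. The arrays of 29 did not overlap, against 44.4% of all genes (28.5% with 60 h higher). The median was 1.88 above that of all genes. HSP12, a small membrane-protecting protein, was at 13.73, 13.52 and 13.62 against 11.65, 10.97 and 11.34, a rise of 2.30 (SE 0.27, adjusted p = 0.00284 in limma). DDR2, a small stress protein of unclear role, was at 12.93, 12.86 and 12.76 against 8.98, 9.75 and 9.66, a rise of 3.39 (SE 0.29, adjusted p = 0.0014). TKL2, the minor transketolase of the pentose phosphate pathway, rose by 3.59 (SE 0.32). These 3 were called without each array in turn, as were 18 of the 26. The 4 that did not pass were HSP26 at 3.03, the glucokinase GLK1 at 1.97, the secreted protein YGP1 at 1.80 and HOR7 at 0.84.

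HSP26, a small heat shock protein, was at 10.80, 12.12 and 12.21 against 5.95, 10.14 and 9.96. The groups did not overlap, and propagation 0 h A was 4 log2 units below B and C. The adjusted p was 0.0786 in limma and 0.00684 with the replicate block. The count of stress genes was 18 without fermentation 60 h B, 19 without fermentation 60 h C or propagation 0 h B, 22 without fermentation 60 h A or propagation 0 h C, and 29 without propagation 0 h A. After recentring it was 24.

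Chaperones under the heat shock factor rose in part, with 11 of 19 higher (57.9%, against 15.0% of all genes) and 0 lower. Their median was 0.81 above that of all genes. SSA3, a cytosolic HSP70 of stressed and starved cells, was at 10.74, 11.16 and 10.85 against 6.94, 7.68 and 7.64, a rise of 3.49 (SE 0.30, adjusted p = 0.0014 in limma). SSA4, the HSP70 of heat shock, rose by 2.52 (SE 0.23), the cyclophilin CPR6 by 1.95 (SE 0.34) and HSP82, an HSP90, by 1.90 (SE 0.30). SSA3, SSA4 and HSP82 were called without each array in turn, and CPR6 was lost without fermentation 60 h B (adjusted p = 0.0565). SSA1 rose by 1.42 (SE 0.33, adjusted p = 0.0216) and the disaggregase HSP104 by 1.56 (SE 0.40, adjusted p = 0.031). Both were lost without any one of the fermentation arrays (adjusted p up to 0.0985 and 0.106), and HSP104 also without propagation 0 h B. Over the list, 4 members passed without fermentation 60 h B and 5 without C.

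Trehalose protects membranes and proteins, and glycogen is the main store of carbon. Of 18 genes of both, 7 rose (38.9%, against 15.0% of all genes) and 0 fell, with a median 0.86 above that of all genes. The glycogen synthase GSY2 was at 11.26, 11.29 and 11.20 against 8.81, 9.09 and 9.50, a rise of 2.12 (SE 0.27, adjusted p = 0.00342 in limma). The acid trehalase ATH1 rose by 2.09 (SE 0.35), TSL1, of the trehalose synthase complex, by 1.84 (SE 0.24) and the phosphoglucomutase PGM2 by 1.78 (SE 0.42). GSY2, ATH1 and TSL1 were called without each array in turn. PGM2 was lost without fermentation 60 h B or C or propagation 0 h B (adjusted p up to 0.105).

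The catalytic subunit TPS1 differed by 0.87 (adjusted p = 0.0697 in limma, and 0.0425 with the replicate block), and the neutral trehalase NTH1 by 0.60 (adjusted p = 0.2). GPH1, the glycogen phosphorylase, was between 2.62 and 3.29 on all 6 arrays, in the range of the probe sets of another species. Without fermentation 60 h B or C, or without propagation 0 h B, 3 genes of the list passed, and 11 did without propagation 0 h A.

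In the proteasome, which degrades ubiquitin-tagged proteins, 16 of 33 genes rose (48.5%, against 15.0% of all genes) and 0 fell. All 33 differences were above 0, and the median was 0.91 above that of all genes. The core subunit PRE3 was at 11.45, 11.56 and 11.48 against 8.67, 9.61 and 10.03, a rise of 2.06 (SE 0.37, adjusted p = 0.00912 in limma). PUP1 rose by 1.78 (SE 0.45), PRE1 by 1.69 (SE 0.35) and the regulatory ATPase RPT1 by 1.25 (SE 0.23). RPN4, the transcription factor that drives proteasome genes, differed by 0.42 (adjusted p = 0.261). The count fell without most single arrays: 0 genes passed without fermentation 60 h B, 1 without C and 5 without A. It was 6 and 10 without propagation 0 h B and C, and 25 without A. Over all genes the 816 rises became 185 and 284 without fermentation 60 h B and C.

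Autophagy genes, which carry cell contents to the vacuole, gave 11 rises among 24 (45.8%, against 15.0% of all genes) and 0 falls. All 24 differences were above 0, and the median was 1.02 above that of all genes. ATG1, the kinase that starts the process, was at 8.52, 9.12 and 9.46 against 5.41, 7.25 and 7.80, a rise of 2.21 (SE 0.61, adjusted p = 0.0369 in limma). ATG33, of mitophagy, rose by 2.19 (SE 0.26), the cargo receptor ATG19 by 1.91 (SE 0.27), the membrane protein ATG9 by 1.87 (SE 0.34) and the autophagosome coat protein ATG8 by 1.34 (SE 0.30). ATG33 and ATG19 were called without each array in turn. ATG9 was lost without fermentation 60 h B or C (adjusted p up to 0.0541), ATG1 without any fermentation array or propagation 0 h B (up to 0.129) and ATG8 without any fermentation array or propagation 0 h C (up to 0.0899).

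Among 19 genes of vacuolar proteases and the vacuolar proton pump, 3 rose (15.8%, near the 15.0% of all genes), and all were proteases. Carboxypeptidase Y, PRC1, was at 11.75, 12.19 and 12.32 against 9.14, 9.93 and 10.22, a rise of 2.32 (SE 0.35, adjusted p = 0.00512 in limma). The aminopeptidase APE3 rose by 1.46 (SE 0.25) and proteinase A, PEP4, by 1.33 (SE 0.28). APE3 was lost without fermentation 60 h B (adjusted p = 0.0629) and PEP4 without fermentation 60 h B or C or propagation 0 h C (up to 0.1). Proteinase B, PRB1, was at 9.20, 10.96 and 10.98 against 7.85, 8.84 and 9.25, a difference of 1.74 (adjusted p = 0.0642, and 0.00539 with the replicate block), so fermentation 60 h A lay within the propagation range. With the block 5 of the 19 rose, when 1083 of all 5449 genes did. The pump subunit VMA1 differed by 0.57 (adjusted p = 0.387).

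Of 15 hexose transporters and sensors, 4 rose and 4 fell, 26.7% each way against 15.0% and 8.85% of all genes. The other 7 did not pass, and the median was 0.24 below that of all genes. The falls were those of HXT1 and HXT4, given above, of HXT3, a low-affinity transporter at 7.22, 7.53 and 7.58 against 9.00, 11.05 and 11.10 (-2.94, SE 0.56, adjusted p = 0.0109 in limma), and of the high-affinity HXT7 at -0.90 (adjusted p = 0.0469). The rises were those of HXT5, a transporter of slow growth and starvation, of HXT17 and HXT13, and of the glucose sensor SNF3. HXT5 was at 10.24, 9.98 and 9.97 against 7.90, 7.27 and 7.25, a rise of 2.59 (SE 0.28, adjusted p = 0.00239).

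HXT17 rose by 1.62, HXT13 by 1.36 and SNF3 by 1.05. All 3 propagation arrays of HXT13 were below background (4.47, 4.57 and 4.21), so the size of its rise is uncertain. HXT7 and HXT17 are read by probe sets shared with near-identical transporters. HXT1, HXT4 and HXT5 were called without each array in turn. HXT3 was lost without fermentation 60 h B (adjusted p = 0.0542), HXT13 without fermentation 60 h B or C (up to 0.0743), SNF3 without fermentation 60 h B or C or propagation 0 h B or C (up to 0.134), and HXT7 and HXT17 without any array but propagation 0 h A (up to 0.186 and 0.128). After recentring HXT17 and SNF3 did not pass, and after quantile normalization HXT17 did not.

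Glycolysis and ethanol formation gave 8 rises and 1 fall among 20 genes, 40.0% and 5.0% against 15.0% and 8.85% of all genes. The median was 1.58 above that of all genes. With the replicate block 14 rose. The glycolytic phosphoglycerate kinase PGK1 was at 11.83, 13.11 and 12.93 against 8.52, 10.77 and 10.42, a rise of 2.72 (SE 0.63, adjusted p = 0.0216 in limma). The mutase GPM1 rose by 2.46 (SE 0.54), the glyceraldehyde phosphate dehydrogenase TDH1 by 1.81 (SE 0.33), the main pyruvate decarboxylase PDC1 by 1.70 (SE 0.29) and the hexokinase HXK1 by 1.22 (SE 0.27). The 1 fall was that of HXK2, the hexokinase of glucose-rich growth, which was at 8.22, 9.16 and 9.24 against 9.63, 11.53 and 11.86, a fall of 2.13 (SE 0.60, adjusted p = 0.0406). HXK1 and HXK2 thus moved in opposite directions.

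ADH1, the main alcohol dehydrogenase of fermentation, was at 11.59, 12.32 and 12.27 against 10.69, 12.19 and 12.21, a difference of 0.36 (adjusted p = 0.606). None of the 20 genes was called without fermentation 60 h B, and 3 rose without C, against 7 without fermentation 60 h A or propagation 0 h B or C and 13 without propagation 0 h A. Array A was the lowest in both groups for PGK1, HXK2 and ADH1.

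Maltose and sucrose genes gave 2 rises among 8 (25.0%, against 15.0% of all genes), with a median 0.25 above that of all genes. SUC2, the invertase, was at 12.00, 12.23 and 12.11 against 9.80, 10.84 and 11.17, a rise of 1.51 (SE 0.38, adjusted p = 0.0276 in limma), and was lost without any fermentation array or propagation 0 h B (up to 0.119). MPH2, an alpha-glucoside transporter on a shared probe set, rose by 0.89 (adjusted p = 0.0397), but did not pass after recentring, quantile normalization or without any array but propagation 0 h A. The maltose transporter MAL31 was at 10.12, 10.90 and 11.06 against 9.62, 10.45 and 10.64 (0.46, adjusted p = 0.412). The maltase MAL32, on a shared probe set, was bright in both groups, at 12.74, 12.61 and 12.51 against 12.25, 12.03 and 12.38 (0.40, adjusted p = 0.264).

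Of 20 genes of alcohol dehydrogenases, acetate and glycerol, 7 rose (35.0%, against 15.0% of all genes) and 0 fell. Their median was 0.90 above that of all genes. With the replicate block 12 rose and 1 fell. ADH4, an alcohol dehydrogenase that is induced when zinc is short, was at 12.62, 12.92 and 13.08 against 8.33, 10.34 and 9.97, a rise of 3.32 (SE 0.51, adjusted p = 0.00558 in limma). The stress-induced aldehyde dehydrogenase ALD3 rose by 2.89 (SE 0.55), ACS1, the acetyl-CoA synthetase of growth without glucose, by 2.58 (SE 0.34) and ADH5 by 2.14 (SE 0.23). All 4 were called without each array in turn. The other 3 rises were those of the glycerol kinase GUT1 (2.12), the aldehyde dehydrogenase ALD2 (1.83) and the glycerol phosphate dehydrogenase GUT2 of mitochondria (1.79), so 2 of the 7 belong to glycerol use.

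ADH2, which oxidizes ethanol and is repressed by glucose, was at 10.05, 10.36 and 10.44 against 8.20, 9.65 and 9.48, a difference of 1.17 (adjusted p = 0.0758 in limma, and 0.0292 with the replicate block). The acetaldehyde dehydrogenase ALD6 differed by 1.09 (adjusted p = 0.0967, 0.0419 with the block). The glycerol synthesis gene GPD1 differed by 0.88 (adjusted p = 0.26, 0.0449 with the block) and GPD2 by 0.20 (adjusted p = 0.552). Without fermentation 60 h B or C or propagation 0 h B or C, 4 members passed, and 12 did without propagation 0 h A.

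Esters and fusel alcohols give beer much of its aroma. Of 11 genes of ester synthesis and the Ehrlich pathway, which turns amino acids into fusel alcohols, 5 rose and 0 fell. The share higher was 45.5%, against 15.0% of all genes, and the median was 0.72 above that of all genes. ARO9, an aromatic transaminase, was at 7.91, 7.80 and 7.52 against 5.59, 5.25 and 5.72, a rise of 2.23 (SE 0.26, adjusted p = 0.00284 in limma), and was called without each array in turn. EEB1, which makes ethyl esters, rose by 1.53 (SE 0.30), the decarboxylase ARO10 by 1.33 (SE 0.37) and ATF1, the main alcohol acetyltransferase, by 1.01 (SE 0.27). The fifth was the esterase IAH1 at 0.79.

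ATF1 and ARO10 did not pass after recentring or quantile normalization. EEB1 was lost without fermentation 60 h B or C (adjusted p up to 0.0681), ATF1 without either of these or propagation 0 h B or C (up to 0.171), and ARO10 without any array but propagation 0 h A (up to 0.131). The branched-chain transaminase BAT2 differed by -0.04 (adjusted p = 0.958). After either rescaling 2 members of the list rose.

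Of 26 genes of the citric acid and glyoxylate cycles, gluconeogenesis and fatty acid oxidation, 12 rose and 1 fell. Shares of 46.2% higher and 3.85% lower compare with 15.0% and 8.85% of all genes. The median was 1.17 above that of all genes. POX1, the acyl-CoA oxidase that opens peroxisomal beta-oxidation, was at 10.79, 10.76 and 10.77 against 6.76, 7.69 and 7.82, a rise of 3.35 (SE 0.33, adjusted p = 0.00184 in limma). FAA2, which activates fatty acids in peroxisomes, rose by 3.02 (SE 0.38) from a propagation 0 h mean of 4.24 that was not above background, the carnitine acetyltransferase CAT2 by 3.00 (SE 0.28), the multifunctional enzyme FOX2 by 2.38 (SE 0.41) and the thiolase POT1 by 2.07 (SE 0.40). POX1, FAA2, CAT2 and FOX2 were called without each array in turn, and POT1 was lost without fermentation 60 h B or C (adjusted p up to 0.069).

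PCK1, the key enzyme of gluconeogenesis, went the other way. It was at 7.78, 8.31 and 8.07 against 9.21, 10.34 and 10.86, a fall of 2.08 (SE 0.43, adjusted p = 0.015 in limma), and was lost without any fermentation array or propagation 0 h B (up to 0.0621). FBP1, the other gluconeogenic enzyme of the list, differed by -0.32 (adjusted p = 0.713) and the isocitrate lyase ICL1 by -0.51 (adjusted p = 0.382). The citrate synthase CIT1 differed by 1.37 (adjusted p = 0.0573, 0.0219 with the replicate block). Of the 12 rises 5 passed without fermentation 60 h B and 8 without C.

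Among 36 genes for respiratory complexes and ATP synthase 6 rose (16.7%, near the 15.0% of all genes) and 0 fell, although 35 differences were above 0 and the median was 0.69 above that of all genes. With the replicate block 13 rose. ATP17 was at 11.08, 10.62 and 10.57 against 9.01, 9.83 and 9.89, a rise of 1.18 (SE 0.33, adjusted p = 0.038 in limma). SDH1, a succinate dehydrogenase subunit, differed by 1.05 (adjusted p = 0.252, 0.0302 with the block), COX5A, the aerobic form of a cytochrome oxidase subunit, by 0.88 (0.359), ATP1 by 0.46 (0.652) and CYC1, the aerobic cytochrome c, by -0.06 (0.924). None of the 6 rises held without any array other than propagation 0 h A.

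Genes of low oxygen rose in part: 7 of 20 were higher (35.0%, against 15.0% of all genes) and 0 lower. Their median was 0.60 above that of all genes. The cell wall mannoproteins of cold and anaerobic growth led. TIR4 was at 10.14, 11.02 and 11.85 against 6.77, 8.20 and 7.17, a rise of 3.63 (SE 0.52, adjusted p = 0.00463 in limma), TIR1 rose by 3.32 (SE 0.42) and TIR2 by 2.28 (SE 0.38). COX5B, the hypoxic partner of COX5A, was at 11.47, 11.03 and 11.17 against 9.13, 8.51 and 8.78, a rise of 2.42 (SE 0.27, adjusted p = 0.00275). These 4 were called without each array in turn.

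ANB1, the hypoxic form of the translation factor eIF5A, rose by 1.36 (SE 0.27, adjusted p = 0.0134), and was lost without fermentation 60 h B or C (up to 0.0782). ROX1, the repressor of hypoxic genes, rose by 0.94 (adjusted p = 0.0446), but not after recentring, quantile normalization or without any array but propagation 0 h A. The seventh was CYC7, the hypoxic cytochrome c, at 1.76. HEM13, a heme enzyme induced by low oxygen, differed by 0.08 (adjusted p = 0.915), the sterol importer AUS1 by 0.19 (0.648) and the anaerobic mannoprotein DAN1 by 0.51 (0.286), and the arrays of all 3 overlapped. The list thus held both clear rises and overlapping genes.

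Of 13 seripauperins, small wall proteins of fermentation whose genes are near-identical, 6 rose (46.2%, against 15.0% of all genes) and 0 fell. Their median was 0.80 above that of all genes. The named rises were PAU7 (1.70), PAU24 (1.61), PAU2 (1.40) and PAU3 (1.27), all on probe sets shared with other members, so these counts are uncertain. All 3 propagation arrays of PAU3 were below background (4.06, 3.64 and 4.19). PAU24 was called without each array in turn. PAU2 was lost without fermentation 60 h B or C (adjusted p up to 0.0743 in limma), PAU3 also without propagation 0 h B (up to 0.105), and PAU7 without any fermentation array (up to 0.11) or after quantile normalization.

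Sterol synthesis, which needs oxygen at several steps, gave 3 rises among 24 genes (12.5%, against 15.0% of all genes) and 0 falls, those of ERG24 (1.40), ERG8 (0.90) and ERG27 (0.84), none of which was called without fermentation 60 h B. With the replicate block 7 rose, and 15 did without both A arrays, when 1083 and 1807 of all 5449 genes did. ERG11, the lanosterol demethylase, was at 12.32, 12.80 and 12.95 against 9.54, 12.61 and 12.47, a difference of 1.15 (adjusted p = 0.315 in limma). Propagation 0 h A stood alone, and B and C lay within the 60 h range. The groups of ERG1, the squalene epoxidase (0.71, adjusted p = 0.51), and of ERG3 (0.90, adjusted p = 0.309) overlapped too, with propagation 0 h A lowest. HMG1, the rate-limiting reductase, was at 11.26, 11.86 and 11.98 against 8.48, 10.81 and 10.77 (1.68, adjusted p = 0.0905, 0.0164 with the block).

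Of 13 genes of fatty acid synthesis and desaturation, 5 rose and 2 fell, and 6 did not pass. Shares of 38.5% higher and 15.4% lower compare with 15.0% and 8.85% of all genes. The acetyl-CoA carboxylase ACC1 was at 12.13, 12.18 and 12.41 against 9.01, 10.26 and 10.04, a rise of 2.47 (SE 0.36, adjusted p = 0.00488 in limma). OLE1, the desaturase that uses oxygen, rose by 2.28 (SE 0.68, adjusted p = 0.047), and the synthase subunits FAS2 and FAS1 by 2.24 (SE 0.42) and 1.59 (SE 0.34). The 2 falls were those of elongases of very long chains: ELO3, given above, was at 6.43, 6.10 and 6.51 against 8.48, 11.33 and 10.59, and ELO2 fell by 1.88 (SE 0.47, adjusted p = 0.0271). ELO1, which elongates shorter chains, differed by -0.04. ACC1 and ELO3 were called without each array in turn. FAS1 and FAS2 were lost without fermentation 60 h B or C (up to 0.0831), OLE1 without any fermentation array or propagation 0 h C (up to 0.146) and ELO2 without any array but propagation 0 h A (up to 0.104).

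Genes of the cytosolic ribosome were lower at fermentation 60 h. Of 128 ribosomal protein genes, 103 fell (80.5%, against 8.85% of all genes) and 0 rose, all 128 differences were below 0, and the median was 1.84 below that of all genes. The median signal over the list was 10.63, 10.46 and 10.40 at fermentation 60 h and 11.96, 12.50 and 12.43 at propagation 0 h, so every 60 h array was below every 0 h array. RPS3, of the small subunit, was at 11.91, 11.76 and 11.53 against 12.79, 12.91 and 13.10, a fall of 1.20 (SE 0.25, adjusted p = 0.0143 in limma). RPP0, of the stalk, fell by 1.73 (SE 0.52, adjusted p = 0.0476). RPS3 was lost without fermentation 60 h B or C or propagation 0 h B or C (up to 0.0848), and RPP0 without any array but propagation 0 h A (up to 0.147). RPL3 was at 9.44, 10.44 and 10.91 against 10.52, 13.05 and 12.70, a difference of -1.83 (adjusted p = 0.0959, 0.00865 with the replicate block), and its groups overlapped through propagation 0 h A. The count of falls was 43 without fermentation 60 h B, 52 without C and 81 without A, 63 and 67 without propagation 0 h B and C, and 124 without A. Without the arrays of brightest ribosomal RNA controls 3 passed.

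Most ribosomal proteins are made from a pair of paralogous genes, and the 2 members did not always move alike. Both genes were tested for 50 pairs, and both fell in 33. Only 35 pairs had no shared probe set, of which both fell in 23, and in the rest signals of near-identical genes may be mixed. The B gene had the lower value in 28 pairs and the higher one in 22, with medians of -1.66 for A genes and -1.76 for B genes. The B gene was lower by at least 1 in 6 pairs and higher by at least 1 in 6. In the first kind, RPL22A and RPL22B differed by -2.86 and -4.54, RPL31A and RPL31B by -1.59 and -3.39, and RPS26A and RPS26B by -1.64 and -3.53. In the second, RPP2A and RPP2B differed by -2.89 and -0.83, RPL15A and RPL15B by -2.75 and -0.89, and RPL36A and RPL36B by -2.57 and -0.83. The widest gap, RPL4A at -0.64 against RPL4B at -3.50, involves a shared probe set. These pairs were named for their gaps after the values were seen, and no test of the gaps was run.

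Genes that build ribosomes fell as well. Of 64 genes of ribosome biogenesis and RNA polymerase I, 33 fell (51.6%, against 8.85% of all genes) and 0 rose. Their median was 1.98 below that of all genes. UTP21, of the processome that cuts the small subunit RNA, was at 7.25, 6.88 and 6.94 against 9.92, 10.22 and 10.25, a fall of 3.11 (SE 0.25, adjusted p = 0.0014 in limma). UTP4 fell by 2.99 (SE 0.31) and the polymerase I subunit RPA43 by 2.86 (SE 0.42), and all 3 were called without each array in turn. The pseudouridine synthase CBF5 was at 6.94, 7.40 and 7.40 against 7.89, 11.27 and 10.87, a fall of 2.76 (adjusted p = 0.0464), lost without any array but propagation 0 h A.

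For several members that did not pass, propagation 0 h A lay near the 60 h arrays. NOP1, the fibrillarin, was at 8.34, 9.45 and 9.39 against 9.14, 12.16 and 12.23 (-2.12, adjusted p = 0.0986 in limma, 0.0104 with the replicate block). NSR1 differed by -2.47 (0.0606, 0.0111 with the block), RRP5 by -1.69 (0.111, 0.0233 with the block) and RPA190, the largest polymerase I subunit, by -1.45 (0.209). Without propagation 0 h A all 64 genes fell, when 1195 of all 5449 genes did. Without fermentation 60 h A, B or C the count was 23, 14 and 18.

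Translation factors gave 5 falls and 1 rise among 24, 20.8% and 4.17% against 8.85% and 15.0% of all genes. The median was 1.02 below that of all genes. RPG1, a subunit of initiation factor eIF3, fell by 1.96 (SE 0.55), the elongation factor subunit TEF4 by 1.85 (SE 0.46) and SUI2, the alpha subunit of eIF2, by 1.84 (SE 0.32, adjusted p = 0.00837 in limma). The other 2 were SUP45, a release factor, at -1.45 and TIF11 at -1.38. SUI2 was called without each array in turn, and RPG1 and TEF4 were lost without any array but propagation 0 h A (up to 0.121 and 0.105). The 1 rise was that of HEF3, at 10.04, 10.90 and 10.87 against 5.30, 6.32 and 6.78, while YEF3, the usual form of the same factor, was at 11.77, 12.18 and 12.21 against 12.06, 13.40 and 13.25 (-0.85, adjusted p = 0.156). PRT1, of eIF3, differed by -1.54 (adjusted p = 0.0522, 0.0205 with the replicate block). Without propagation 0 h A 20 members fell, when 1195 of all 5449 genes did.

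The proteins of mitochondrial ribosomes did not follow those of the cytosol. Of 55 genes listed, 1 rose (1.82%, against 15.0% of all genes) and 0 fell. Over the list the differences ran from -0.50 to 1.26, and the median was 0.06 below that of all genes. The 1 rise was that of MRP8, at 12.09, 12.13 and 12.05 against 10.05, 11.14 and 11.30 (1.26, SE 0.36, adjusted p = 0.0432 in limma). It was lost without any array but propagation 0 h A. MRP8 bears the name of these proteins, but whether it belongs to the mitochondrial ribosome was not checked. The other 54 genes of the list were not called. MRPL3 differed by -0.42 (adjusted p = 0.296) and MRPS5 by 0.41 (0.36). The contrast with the 103 falls among 128 cytosolic proteins was not tested.

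**Figure D4:**
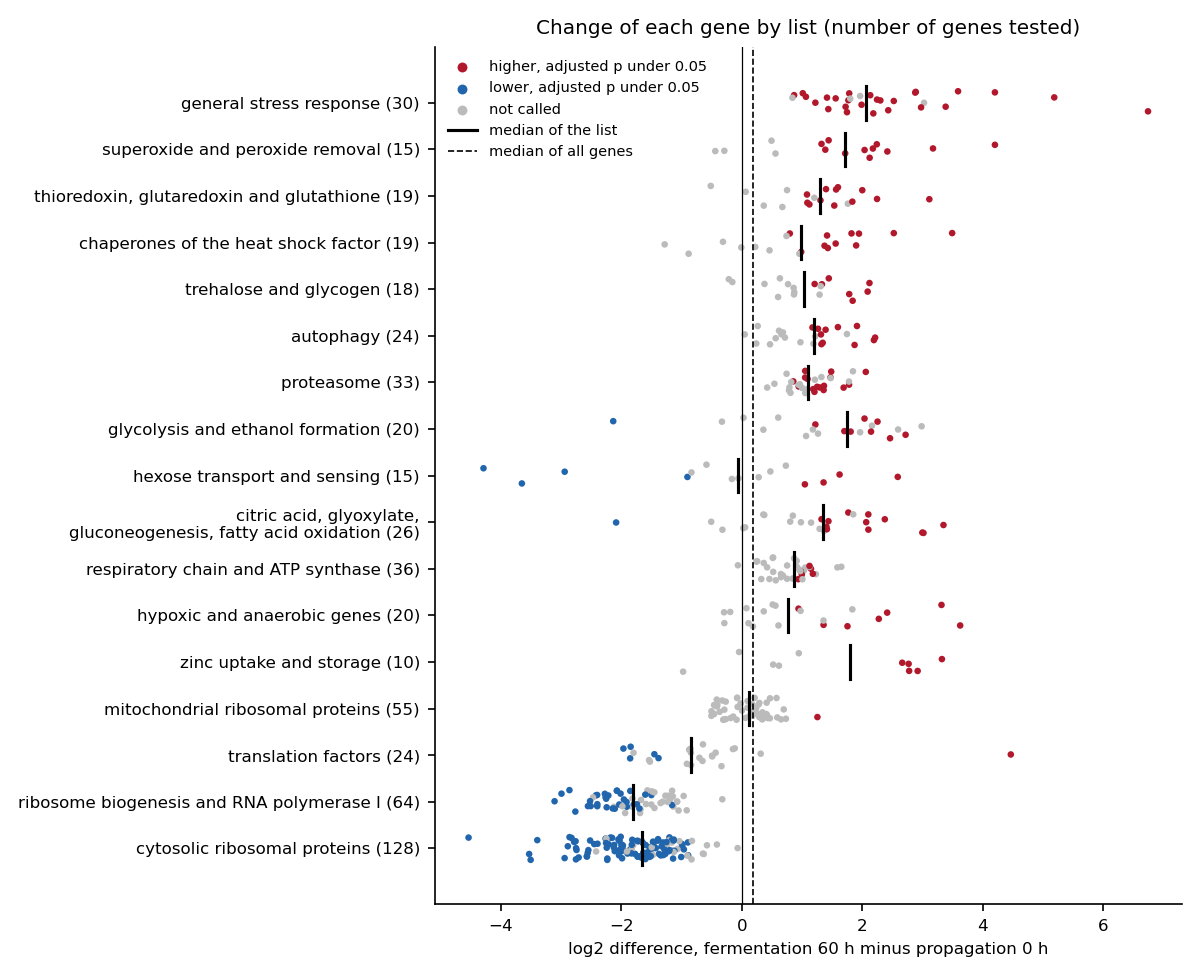
Log2 difference (fermentation 60 h minus propagation 0 h) of every gene tested in 17 lists, with genes that rose in red, genes that fell in blue and others in grey. Black bars are list medians, and the dashed line is the median of all genes (0.18). The general stress genes lie above the line and the cytosolic ribosomal proteins below it, and the mitochondrial ribosomal proteins lie around it.

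Zinc genes were higher at fermentation 60 h. Of 10 genes, 5 rose (50.0%, against 15.0% of all genes), 0 fell, and the median was 1.63 above that of all genes. IZH1, a membrane protein of zinc homeostasis, was at 12.00, 12.03 and 11.95 against 7.89, 9.59 and 9.73, a rise of 2.92 (SE 0.48, adjusted p = 0.00706 in limma). ZPS1, a wall protein induced by zinc shortage, was at 12.06, 12.16 and 11.34 against 8.69, 9.23 and 9.31, a rise of 2.78 (SE 0.32, adjusted p = 0.00284). ZAP1, the zinc-sensing activator that drives these genes, was at 8.80, 9.06 and 9.04 against 4.57, 7.03 and 7.00, a rise of 2.77 (SE 0.64, adjusted p = 0.0213). Propagation 0 h A was at background for ZAP1.

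The other 2 rises were those of ADH4, given above, and IZH2 at 2.67. ZRT1, the high-affinity zinc importer, was bright in both groups, at 12.99, 12.97 and 12.64 against 11.79, 12.66 and 12.58 (0.52, adjusted p = 0.258). The other 4 that did not pass were ZRT3 (0.95), ZRT2 (0.62), COT1 (-0.04) and ZRC1 (-0.97). IZH1 and ZPS1 were called without each array in turn, and ZAP1 was lost without any one of the fermentation arrays (up to 0.0835). Over the list, 4 or 5 members rose without any single array.

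Iron genes gave 4 rises (15.4%) and 3 falls (11.5%) among 26, near the 15.0% and 8.85% of all genes. The rises were those of TIS11, which degrades mRNAs of iron-using proteins, at 5.88, 7.08 and 6.98 against 4.22, 4.91 and 5.34 (1.82, SE 0.43, adjusted p = 0.023 in limma), the heme oxygenase HMX1 (1.33), the vacuolar iron importer CCC1 (1.22) and the regulator AFT2 (1.01). The falls were those of FET3, the ferroxidase of high-affinity uptake, at 4.96, 4.91 and 5.34 against 6.25, 7.73 and 7.99 (-2.26, SE 0.46, adjusted p = 0.0144), the vacuolar iron exporter SMF3 (-2.23, SE 0.24) and ISU2, an iron-sulfur scaffold (-1.45). FET3 was near background at 60 h. FTR1, the permease that works with Fet3, differed by -1.33 (adjusted p = 0.168, 0.0456 with the replicate block), and FIT2, a wall mannoprotein of iron shortage, stayed near background in both groups (-0.12, adjusted p = 0.794).

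Of the iron genes SMF3 was called without each array in turn. HMX1 was lost without fermentation 60 h B or C (adjusted p up to 0.0827 in limma), CCC1 also without propagation 0 h C (up to 0.0899), TIS11 without those 2 fermentation arrays or propagation 0 h B (up to 0.109), FET3 without fermentation 60 h A or B (up to 0.0715), and ISU2 and AFT2 without any array but propagation 0 h A. AFT2 did not pass after either rescaling.

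Phosphate genes gave 2 rises and 2 falls among 20, 10.0% each way against 15.0% and 8.85% of all genes. The phosphate transporter PHO89 fell by 1.58 (SE 0.34, adjusted p = 0.0166 in limma) and VTC1, of vacuolar polyphosphate synthesis, by 1.60 (SE 0.25, adjusted p = 0.00555), while SPL2 and PHO11 rose by 1.10 and 1.03. VTC1 was at 8.51, 8.34 and 8.15 against 10.14, 9.84 and 9.82, and was called without each array in turn. PHO89 was lost without any array but fermentation 60 h A and propagation 0 h A (up to 0.0809). SPL2 and PHO11 did not pass after either rescaling or without any array but propagation 0 h A. PHO84, the main high-affinity transporter, was at 5.87, 6.40 and 6.33 against 6.50, 8.53 and 8.45 (-1.62, adjusted p = 0.0684, 0.0156 with the replicate block), the acid phosphatase PHO5 differed by 0.76 (0.0832) and VTC3 by -0.45 (0.419).

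Nitrogen genes showed 2 rises and 3 falls among 27, and with the replicate block 3 rises and 6 falls. UGA1, which uses gamma-aminobutyrate, was at 10.40, 11.19 and 11.03 against 7.75, 8.86 and 9.14, a rise of 2.29 (SE 0.42, adjusted p = 0.00986 in limma), and PUT2, of proline use, rose by 2.01 (SE 0.41). DAL7, a malate synthase of allantoin use, was at 7.01, 6.61 and 6.54 against 8.91, 9.11 and 9.10, a fall of 2.32 (SE 0.25, adjusted p = 0.00239). The allantoinase DAL1 fell by 1.93 (SE 0.36), and the third fall was that of the allantoin permease DAL4 at -1.03. DAL7 was called without each array in turn, DAL1 was lost without fermentation 60 h C (0.0515), UGA1 without B (0.0566) and PUT2 without any fermentation array (up to 0.0726).

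The general amino acid permease GAP1 differed by -1.18 (adjusted p = 0.165 in limma, 0.0292 with the block), the ammonium permease MEP2 by -0.73 (0.0657), the repressor DAL80 by -1.01 (0.0598, 0.036 with the block) and the proline permease PUT4 by 1.40 (0.113, 0.0159 with the block). Shares of 7.41% higher and 11.1% lower in this list compare with 15.0% and 8.85% of all genes.

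In sulfur assimilation and methionine synthesis 8 of 24 genes rose (33.3%, against 15.0% of all genes) and 0 fell. Their median was 0.39 above that of all genes. MET6, the methionine synthase, was at 10.38, 11.30 and 11.36 against 6.36, 9.22 and 8.74, a rise of 2.90 (SE 0.72, adjusted p = 0.0272 in limma). STR3, a cystathionine lyase, was at 9.29, 9.59 and 9.34 against 6.73, 6.73 and 7.06, a rise of 2.57 (SE 0.25, adjusted p = 0.00172). The S-adenosylmethionine synthetase SAM2 rose by 2.37 (SE 0.48), the sulfhydrylase MET17 by 1.84 (SE 0.26) and the methionine permease MUP1 by 1.62 (SE 0.40).

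STR3 and MET17 were called without each array in turn. SAM2 was lost without fermentation 60 h B or C (adjusted p up to 0.0713 in limma), and MET6 and MUP1 without any fermentation array (up to 0.107 and 0.118). At the start of the pathway the ATP sulfurylase MET3 was at 5.78, 5.50 and 5.92 against 5.69, 5.47 and 5.83 (0.07, adjusted p = 0.869), and the sulfate permease SUL1 differed by 0.45 (0.443). Both sets of arrays overlapped.

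Other amino acid genes split, with 6 rises and 9 falls among 51, 11.8% and 17.6% against 15.0% and 8.85% of all genes. The rises included ARG1, of arginine synthesis, at 9.90, 10.27 and 10.37 against 7.22, 8.67 and 8.37 (2.09, SE 0.40, adjusted p = 0.0116 in limma), HIS4 (1.89, SE 0.45) and the serine gene SER1 (1.84, SE 0.39). The falls included the lysine genes LYS9, at 8.72, 8.51 and 8.08 against 10.35, 10.73 and 10.61 (-2.13, SE 0.27, adjusted p = 0.00365), and LYS12 (-1.77, SE 0.36), and the leucine gene LEU9 (-1.68, SE 0.32). LYS9 was called without each array in turn. LEU9 was lost without fermentation 60 h B (0.0701), ARG1 without B or C (up to 0.0636), HIS4 and SER1 without any fermentation array (up to 0.103 and 0.0731) and LYS12 likewise (up to 0.0602).

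LEU4, the major isopropylmalate synthase, differed by 0.89 (adjusted p = 0.0668 in limma). ILV5, of branched-chain synthesis and of the pathway behind diacetyl in beer, was at 10.58, 11.46 and 11.36 against 8.61, 11.79 and 11.66 (0.45, adjusted p = 0.719), with propagation 0 h A below all others and B and C above the 60 h arrays.

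Vitamin genes rose in 7 of 14 cases (50.0%, against 15.0% of all genes) and fell in 0, with a median 0.68 above that of all genes. The pyridoxine genes SNO1 and SNZ1 lie side by side and are known from stationary phase. SNO1 was at 9.20, 8.86 and 8.72 against 6.53, 6.22 and 6.42, a rise of 2.54 (SE 0.25, adjusted p = 0.00184 in limma), and SNZ1 rose by 2.22 (SE 0.45, adjusted p = 0.0133). The thiamine gene THI21 rose by 1.93 (SE 0.26), and THI13 was given above. THI4, another thiamine gene, differed by 0.54 (adjusted p = 0.172). SNO1, THI21 and THI13 were called without each array in turn, and SNZ1 was lost without fermentation 60 h B or C (up to 0.0693).

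Of 24 DNA replication genes, 6 fell (25.0%, against 8.85% of all genes) and 1 rose (4.17%, against 15.0%), and the median was 0.69 below that of all genes. POL30, the sliding clamp PCNA, was at 8.43, 8.08 and 7.81 against 10.37, 10.68 and 10.79, a fall of 2.51 (SE 0.27, adjusted p = 0.00239 in limma). The clamp loader subunit RFC5 fell by 1.78 (SE 0.29), and the helicase subunits MCM5 and MCM2 by 1.24 and 1.04. RNR3, the ribonucleotide reductase subunit induced by DNA damage, was at 8.24, 8.39 and 8.15 against 7.15, 6.74 and 6.73, a rise of 1.39 (SE 0.25, adjusted p = 0.00916), while RNR1, the usual subunit, differed by -1.28 (0.0837, 0.0332 with the replicate block).

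POL30 was called without each array in turn. RFC5 and RNR3 were lost without fermentation 60 h B (0.0533 and 0.071), MCM5 without fermentation 60 h B or C or propagation 0 h C (up to 0.128) and MCM2 without any array but propagation 0 h A (up to 0.18). Without propagation 0 h A 12 of the 24 fell, when 1195 of all 5449 genes did.

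Among 16 cyclins, Cdk inhibitors and start regulators, 2 fell (12.5%, against 8.85% of all genes) and 1 rose (6.25%, against 15.0%), and with the replicate block 4 fell. The mitotic cyclin CLB1 was at 5.07, 4.92 and 4.69 against 7.17, 7.05 and 6.86, a fall of 2.13 (SE 0.25, adjusted p = 0.00284 in limma), to a level close to background. SWI5, a transcription factor of the end of mitosis, fell by 1.23 (SE 0.31, adjusted p = 0.0294). FAR1, a Cdk inhibitor of G1 arrest, was at 6.40, 6.53 and 6.67 against 4.65, 4.22 and 4.99, a rise of 1.91 (SE 0.28, adjusted p = 0.00486) from a mean of 4.62 that was not above background. CLB1 and FAR1 were called without each array in turn, and SWI5 was lost without fermentation 60 h B or C or propagation 0 h B or C (up to 0.143). CLB2 differed by -0.98 (adjusted p = 0.0902), the inhibitor SIC1 by -0.62 (0.117), and the G1 cyclins CLN3 and CLN2 by -0.38 (0.711) and -0.03 (0.959).

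Of 9 histone genes 1 fell (11.1%, against 8.85% of all genes), HTB2, which was at 7.50, 6.89 and 6.71 against 8.55, 9.20 and 9.07 (-1.91, SE 0.32, adjusted p = 0.00709 in limma), and it was lost without fermentation 60 h B (0.0519). The other gene for the same histone, HTB1, was at 12.27, 11.89 and 11.71 against 12.38, 11.56 and 11.87 (0.02, adjusted p = 0.967). HTA1 differed by 0.07 (0.897) and HHF1, on a shared probe set, by 0.21 (0.613).

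Genes by which the daughter cell parts from its mother gave 4 falls and 1 rise among 12, the rise being that of NCA3. Shares of 33.3% lower and 8.33% higher compare with 8.85% and 15.0% of all genes. EGT2, a wall protein of cell separation, was at 7.54, 7.33 and 7.22 against 9.42, 9.34 and 9.08, a fall of 1.92 (SE 0.24, adjusted p = 0.00359 in limma), and DSE2, a daughter-specific glucanase-like protein, fell by 1.49 (SE 0.32). The other 2 falls were those of the glucanase DSE4 (-1.15) and of AMN1 (-1.06). EGT2 was called without each array in turn, and DSE2 was lost without fermentation 60 h B or C or propagation 0 h B or C (up to 0.0864). SCW11 differed by -1.51 (adjusted p = 0.0511, 0.0399 with the replicate block) and the chitinase CTS1 by -0.47 (0.36).

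Flocculins make brewing yeast clump and settle. Of 6 genes, FLO11, a wall protein of adhesion and biofilms, was the 1 that rose (16.7%, near the 15.0% of all genes), at 9.15, 9.42 and 9.43 against 7.08, 6.83 and 6.87 (2.41, SE 0.24, adjusted p = 0.00184 in limma), and it was called without each array in turn. With the replicate block 2 rose. FLO1 lay between 2.38 and 2.85 on all 6 arrays, in the range of the probe sets of another species, and the activator FLO8 differed by -0.23 (adjusted p = 0.585).

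Markers of meiosis and of haploid cells were looked at as signs of other cell states that the culture could hold. Of 21 meiosis and sporulation markers, 5 rose (23.8%) and 1 fell (4.76%), against 15.0% and 8.85% of all genes. Their median signal was 5.88, 5.25 and 5.27 at fermentation 60 h and 5.62, 4.28 and 4.76 at propagation 0 h. The rises were led by DMC1, a recombinase, at 9.02, 8.53 and 8.32 against 7.29, 5.79 and 6.08 (2.24, SE 0.43, adjusted p = 0.0113 in limma), and also took in SPO20 (1.60), ZIP1 (1.46), OSW1 (1.45) and SPO11 (1.24), and the fall was that of SPS1 (-1.08). The propagation 0 h means of SPO20 and SPO11 (4.22 and 4.62) were not above background. NDT80, the regulator that commits cells to meiosis, differed by 0.32 (0.717), and SPS4, near background in both groups, by 0.05 (0.951).

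Of 19 haploid mating markers 4 rose (21.1%) and 0 fell, against 15.0% and 8.85% of all genes. The rises were those of STE4 (1.85, SE 0.31, adjusted p = 0.00729 in limma), STE6 (1.74), SAG1 (1.13) and RME1 (1.02). Their median signal was 6.31, 6.11 and 6.12 against 6.59, 5.19 and 5.63. The receptors STE2 and STE3 differed by 0.80 (0.166) and 0.41 (0.398), and the pheromone gene MFA1 by 0.05 (0.966). No marker rise in either list was called without fermentation 60 h B, and after recentring 3 and 2 rises were left. The part of such cells in the other results was not tested.

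To place the 60 h values within the fermentation, they were compared with the 3 arrays of fermentation 8 h, on those 6 arrays alone. In limma 1607 genes (29.5%) changed, 943 higher (17.3%) and 664 lower (12.2%) at 60 h, and with the replicate block 2979 did. After recentring 796 were higher and 885 lower. The 2 comparisons share the 60 h arrays. The titles of the 8 h arrays carry a mark that those of 60 h lack, and its meaning is not given, so a batch behind it cannot be told apart from the time. Fermentation 8 h B and C differed little: over all genes the SD of the difference was 0.123, whereas each lay 0.494 and 0.511 from A. In turn, 720 and 763 genes were called without B or without C.

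For some genes most of the difference from propagation was also present at 8 h. Propagation 0 h is another vessel and not the start of this fermentation, which was not sampled before 8 h. When a difference from propagation arose can thus not be told. CTT1 was at 12.73, 12.97 and 12.91 at fermentation 8 h, AHP1 at 12.38, 12.23 and 12.31, PGK1 at 11.95, 12.97 and 12.95 and ADH4 at 12.61, 12.89 and 12.84. From 8 to 60 h these differed by -0.01 (adjusted p = 0.973 in limma), 0.00 (0.987), 0.00 (0.999) and 0.09 (0.724). The same was true of falls: HXT1 was at 7.15, 7.16 and 7.06 and UTP21 at 7.00, 6.96 and 6.87 at 8 h, and they differed by -0.71 (0.0574) and 0.08 (0.733) from 8 to 60 h. Among the 64 ribosome biogenesis genes 19 were higher and 5 lower at 60 h than at 8 h, against 17.3% and 12.2% of all genes.

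Other genes differed between fermentation 8 and 60 h. SIP18 was at 10.65, 10.08 and 10.02 at 8 h, between its propagation and 60 h values, and was 2.91 higher at 60 h (adjusted p = 0.000295 in limma). GRE1 was at 6.96, 6.77 and 6.76 and rose by 4.05 (adjusted p = 0.000146). NCA3 rose by 4.98 from 8 to 60 h, AQY1, a spore aquaporin, by 3.96, SNO1 by 3.51 and STR3 by 2.96. With GRE1 these were the 5 largest rises from 8 to 60 h among named genes that passed in both comparisons. AQY1 was at 8.27, 9.87 and 10.70 at 60 h against 6.09, 6.11 and 5.71 at propagation 0 h.

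The 5 largest falls from 8 to 60 h that passed in both were HTB2 (-3.45), HXT4 (-3.27), AIM20 (-3.26), SUR7 (-3.19), a protein of the eisosome, and RPL31B (-2.95). In the comparison with propagation SUR7 was lost without any array but propagation 0 h A (adjusted p up to 0.13 in limma). HXT4 was at 9.70, 10.40 and 10.39 at 8 h and at 7.01, 6.83 and 6.84 at 60 h, so within the fermentation it fell between these times. Of the cytosolic ribosomal proteins 120 of 128 were lower at 60 h than at 8 h, against 12.2% of all genes, and 0 were higher. Their median difference was -1.36. RPL22B was at 8.66, 8.29 and 8.04 at 8 h.

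HXK2 was at 11.37, 11.90 and 11.90 at fermentation 8 h, near its propagation level, and fell by 2.85 to 60 h (adjusted p = 0.000938 in limma). Other genes had their 60 h level between those of propagation 0 h and 8 h. PCK1 was at 6.66, 6.61 and 6.53 at 8 h, below both other groups, and was 1.46 higher at 60 h (adjusted p = 0.00124). ANB1 was at 10.46, 10.44 and 10.29 at 8 h and fell by 1.38 to 60 h (adjusted p = 0.000665). HSP104 was at 11.17, 11.14 and 10.99 and was lower by 0.94 at 60 h (-0.94, adjusted p = 0.00402). Of the superoxide and peroxide genes 5 of 15 were higher at 60 h than at 8 h, against 17.3% of all genes, and of the proteasome genes 20 of 33. SOD1 was at 10.76, 11.05 and 11.06 at 8 h, within its propagation range, and was higher by 1.50 at 60 h (adjusted p = 0.00105 in limma), and CTA1 by 1.71 (0.000943).

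At fermentation 30 h, with 2 arrays, some genes lay between their 8 and 60 h values or near 1 of them, which was not counted over all genes. Others did not, such as CTT1, at 13.23 and 13.15, above its arrays of both times. SIP18 was at 12.25 on B and 10.37 on C, GRE1 at 9.69 and 7.01, and HXT4 at 6.99 and 9.50. In these 3 genes B was nearer to the 60 h arrays and C to those of 8 h. Across all genes B was not: the standard deviation of its difference was 0.457 and 0.451 from 8 h B and C. It was 0.642 from 8 h A, and 0.765, 0.555 and 0.492 from 60 h A, B and C. Over all genes the difference of 30 h C from 8 h B and C had a standard deviation of 0.233 and 0.230, below the 0.338 between 30 h C and B, so the 30 h arrays were not averaged.

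**Figure D5:**
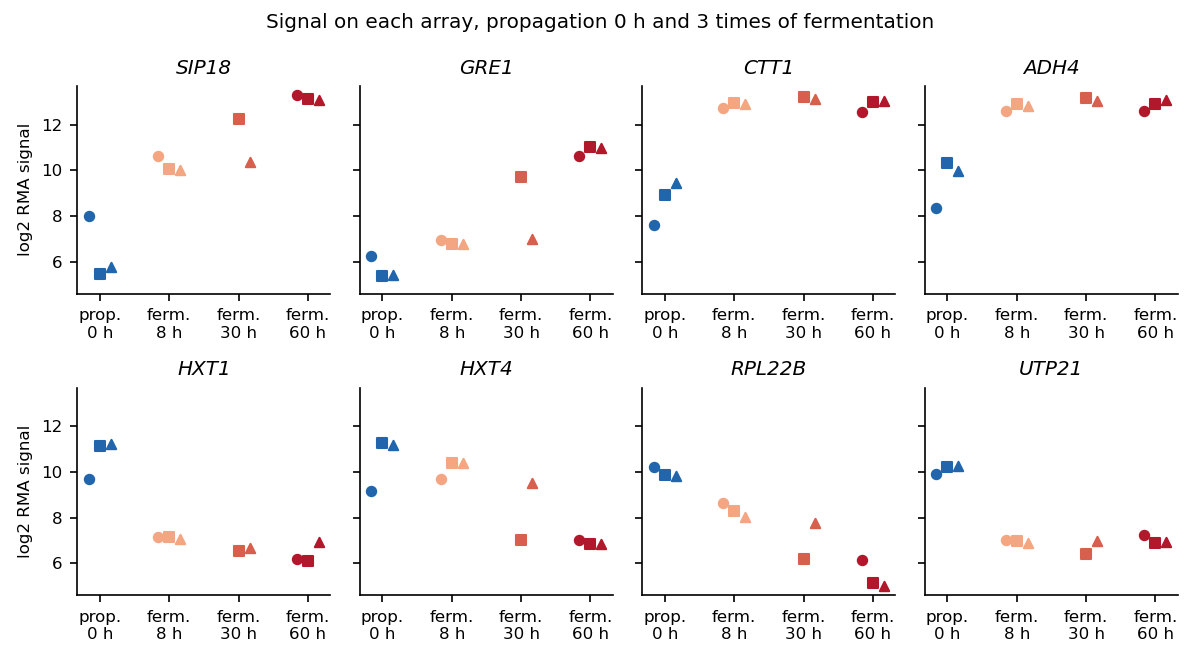
Log2 signal of 8 genes on each array at propagation 0 h (blue) and fermentation 8, 30 and 60 h (light to dark red), with circles, squares and triangles for arrays A, B and C. SIP18 and GRE1 are higher at 60 h than at 8 h, and CTT1 and ADH4 are near their 60 h level at 8 h. HXT1 and UTP21 are low at every fermentation time. HXT4 and RPL22B are lowest at 60 h, where HXT4 lies between 6.83 and 7.01. Propagation 0 h is another vessel, not the start of this fermentation.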

How the data were processed

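Total RNA of 17 yeast samples was labelled from oligo dT and hybridized to Affymetrix arrays, per the labels' protocols. The deposited values are log2 signals per probe set made by the authors with RMA, per the submitters' processing notes; the version and the arrays normalized together are not given in the sources used here. Values ran from 2.17 to 14.07, and precision is limited by how few arrays there are. Of 10928 probe sets, 5498 named 1 gene of Saccharomyces cerevisiae, 1746 a gene of another species, 1 several genes and 3470 none, and 213 were controls. The platform annotation paired them with genes, and 12 symbols were updated through RefSeq.

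For each of 5449 genes the probe set of highest mean over the 6 arrays was tested in limma 3.58.1 (R 4.3.3) on those 6 arrays, two-sided, with Benjamini-Hochberg adjustment over all genes and a threshold of 0.05. Of these genes 113 are read by a shared probe set. The steps were tested on simulated data.

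Members, 39 gene lists (943 distinct genes) and tests were chosen with earlier results of these data known. Named were the 10 largest rises and falls, key list members, up to 4 rises and 4 falls a list, and the 5 largest rises and falls passing in both comparisons. Other members, named to complete short counts, and the ribosomal pairs were chosen after their values were seen.

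The labels name no pairing of samples, and the reported fit uses none. Same-letter arrays of the 2 groups had residual correlations of 0.51, 0.278 and 0.165. Both A arrays also had the largest end difference of the control mRNAs, and whether that lies behind their correlation was not tested. Some different-letter arrays correlated more (0.536 for fermentation C with propagation B, 0.404 for fermentation B with propagation C), so pairing B with B and C with C was not borne out. The fit with the replicate block, which pairs arrays by letter, is thus only an alternative and called 1717 genes. Promoter motifs were not analysed, since no promoter sequences were used here.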

Additional observations from a re-analysis of the deposited data

How the results depend on the processing

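For fermentation 60 h minus propagation 0 h, 1298 genes passed in limma. The count was 2236 with all 17 arrays in the fit, 2137 with 11 arrays, 3493 with array weights, 3272 without both A arrays, 2392 with the end difference of the control mRNAs as a covariate and 29 without the arrays of brightest ribosomal RNA controls, an alternative chosen after seeing the data. Leaving out 1 array gave 309 (without fermentation 60 h B) to 2715 (without propagation 0 h A). With the replicate block, which pairs arrays by letter, it was 1717, no named call was lost and 23 of 78 named genes that had not passed did so. The share of higher genes among those called was 62.9%, against 48.6% after recentring and 48.8% after quantile normalization. For fermentation 60 h minus 8 h the count of 1607 became 864 with all 17 arrays, 780 with 11, 2979 with the replicate block, 3455 with array weights and 2933 without both A arrays, and 720 to 1821 on leaving out 1 array. The share of higher genes there was 58.7%, against 47.4% and 50.9% after the 2 rescalings. Of 170 named calls 71 were kept without each single array, and 98 were lost without fermentation 60 h B. Without the arrays of brightest ribosomal RNA controls 152 were lost, and 18 passed in every setting that tested them. No call turned its sign in any of these settings, which refit the same arrays and so left little room for it. Fewer arrays leave fewer degrees of freedom. At the same size of 2 against 2 arrays, the count was 3272 without both A arrays and 29 without those of brightest ribosomal RNA controls. The cause of these shifts was not tested.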
